A study of Mus musculus with 4 samples.

Results

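The genes described here are 34 genes of cholesterol and fatty acid synthesis, chosen by symbol from the 55487 gene IDs of the count table. They fall into 18 genes of sterol synthesis, 8 of fatty acid synthesis and 8 that regulate these pathways or carry sterol. The tissue was E14.5 mouse calvaria, the bones of the skull vault, from which poly(A) RNA was sequenced in 2 libraries of frontal bone and 2 libraries that each hold parietal and interparietal bone and are called the parietal libraries below. No strain, genotype or treatment is labelled for either group. Nor do the labels tie libraries to embryos, so each p-value rests on a spread between samples that may be technical. Going by its title, the series belongs to work on extracellular vesicles that carry citrate in mineralization. All 34 genes had counts in every library and passed the filter on low counts.

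Cholesterol is built from acetyl-CoA. Condensing enzymes make HMG-CoA, kinases and a decarboxylase turn mevalonate into isoprene units, these are joined to farnesyl diphosphate and squalene, and squalene is closed into lanosterol and trimmed to cholesterol. Fatty acids are built from the same acetyl-CoA by acetyl-CoA carboxylase and fatty acid synthase, then lengthened by elongases and given double bonds by desaturases. Transcription of most of these genes is driven by the sterol regulatory element-binding proteins (SREBPs), which the escort protein SCAP carries out of the endoplasmic reticulum when sterol is low and which INSIG proteins hold back when sterol is high. Sterol made in the cell is required for growth of the embryonic brain and skull, and inborn defects of the last steps are known for craniofacial malformation.

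Each library held between 24069177 and 35555013 counts. Levels below are CPM, each gene's count as a share of its library's total after TMM scaling, and a difference is frontal minus parietal on the log2 scale with its standard error (SE). A gene was called where the adjusted p of edgeR's quasi-likelihood test, taken over all 20947 genes tested, was under 0.05. Bone markers were present: Runx2, a transcription factor of osteoblasts, was at 16.3 and 15.8 CPM in the frontal pair and 13.5 and 10.7 CPM in the parietal pair, and Sp7, which acts after it, at 10.1 and 9.94 against 12.4 and 12.9 CPM. The mineralization genes Alpl and Ibsp were at 18.2 and 25.3 against 15.4 and 15 CPM and at 81.2 and 92.4 against 40.9 and 40.7 CPM. Col1a1, the main collagen of bone, was at 994 and 967 against 1490 and 1503 CPM. The libraries were mixed tissue, and markers of several other cell types differed between the groups. For the counts called below, the shares over all genes tested were 6.25% higher and 6.44% lower. Choroid plexus genes summed to 902 CPM in frontal against 118 CPM in parietal libraries, with 3 of 6 called higher. Most of the frontal sum was Ttr, which averaged 763 against 27.6 CPM. Neural progenitor genes summed to 1315 against 1227 CPM (3 of 10 higher, 1 lower) and neuron genes to 991 against 975 CPM (5 of 13 higher, 4 lower). These close sums hide large differences in single genes. Among neuron genes, Neurod2 averaged 49 CPM in frontal against 1.42 CPM in parietal libraries, Neurod6 45.5 against 0.677 and Tbr1 27.5 against 0.119 CPM. These are the neuron genes of smallest p. The list went both ways, with 7 of 13 differences positive and 6 negative, from -1.28 to 7.83 on the log2 scale. Pax6, a progenitor gene, averaged 41.4 against 6.76 CPM. Most other lists summed to less in frontal libraries. Skeletal muscle genes summed to 1947 against 2594 CPM (11 of 14 lower), meninges genes to 894 against 1212 CPM (6 of 11 lower), macrophage genes to 394 against 490 CPM (3 of 12 lower) and red cell genes to 8988 against 11001 CPM (5 of 8 lower). Oligodendrocyte and Schwann cell genes summed to 390 against 685 CPM (4 of 9 lower, 1 higher). Most of that sum was the single gene Pdgfra, which averaged 243 against 420 CPM. Epidermis genes summed to 778 against 865 CPM (2 of 8 lower) and endothelium genes to 353 against 427 CPM (1 of 6 lower). Osteoblast genes summed to 3850 against 4830 CPM, with 2 of 12 higher and 2 lower, the lower ones being the collagen genes Col1a1 and Col1a2. Of the 4 adipocyte genes tested 0 were called by edgeR or DESeq2 (1 at an unadjusted p under 0.05), with Cidec at 0 in all libraries. The part of these cell types in the differences below was not tested, and in such bulk tissue fewer cells of a type and less RNA per cell cannot be told apart.

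Most of the lipid synthesis genes were not called, and differences in those that were called were small. Of the 34 genes, 6 were called higher in frontal libraries (Acat2, Mvk, Fdft1, Sqle, Fads2 and Scap), 1 was called lower (Hmgcs1) and 27 were not called. The called genes differed between 1.23-fold and 1.53-fold. Over all genes tested, 6.25% were called higher, 6.44% lower and 12.7% in either direction. Among the 10395 genes at or above a mean of 10 CPM, a level that 33 of these 34 reach, 9.25% were called higher, 10.5% lower and 19.7% in either direction. The share of these genes called higher was 17.6%, and the share called lower was 2.94%. The median log2 difference was 0.14 over the 34 genes and 0.006 over all genes tested.

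The calls depended on the parietal pair and on the scaling. When parietal library 1 was left out, 0 of the 34 genes were called by edgeR (5 at an unadjusted p under 0.05). The count was also 0 when library 2 was left out and when the pair was added up as 1 sample (4 at an unadjusted p under 0.05 in each). With either frontal library left out, more of the 34 genes were called than as reported. Over all genes tested the number called moved the same way, up without a frontal library and down without a parietal library. A fit with 1 library left out takes its spread from the pair left whole, and the frontal pair varied more. Over genes averaging 10 CPM or more, the median absolute log2 ratio within a pair was 0.147 in frontal and 0.0682 in parietal libraries. For fits without a frontal library, the paragraphs on single genes therefore give the difference only. Scaled by the total count alone, 2 of the 34 were called higher and 2 lower, and over all genes 984 were then called higher and 1606 lower, against 1309 and 1348 with TMM scaling.

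**Figure D1:**
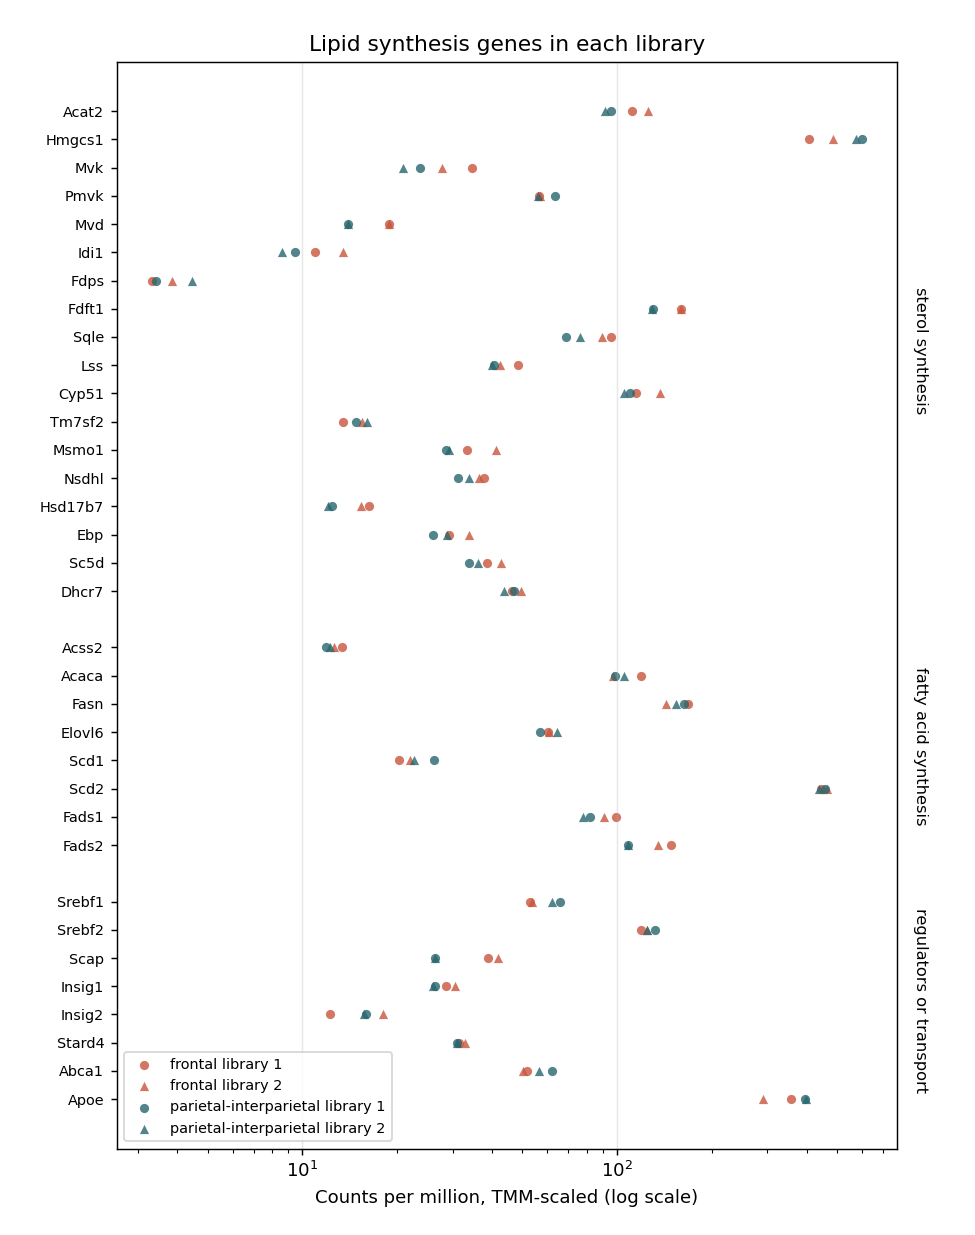
Level of each gene in each of the 4 libraries, in TMM-scaled CPM on a log axis, grouped by role, with frontal libraries in red and parietal libraries in teal. Each point is 1 library. The red points lie right of the teal points for 13 of 18 sterol synthesis genes, and left of them for Hmgcs1.

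Promoters of sterol synthesis genes are shown because these genes share letters there that most genes lack. RefSeq windows of 300 bases, most of them upstream of a gene's start (build GRCm38.p6), were found for 27 of the 34 genes. The windows were searched on both strands for CCAAT (the CCAAT box bound by NF-Y), GGGCGG (the GC box bound by Sp1), CACGTG (an E-box) and TCACNCCAC (a sterol regulatory element, the site bound by SREBPs). CCAAT lay in a window of 14 of 15 sterol synthesis genes, a share of 93.3%, against 41.1% of all 27025 genes of the table. GGGCGG lay in 14 of 15 against 38.2%. These 27025 genes include genes that were not tested here, and no share over tested genes alone was taken. CACGTG was found in 3 of 15 sterol synthesis genes, 0 of 5 fatty acid synthesis genes and 3 of 7 regulators and transport genes, against 8.09% of all genes. Among fatty acid synthesis genes CCAAT and GGGCGG were each found in 2 of 5, and among regulators and transport genes in 4 and 6 of 7. The element TCACNCCAC was found in 1 of the 27 genes, Hmgcs1, against 1.44% of all genes of the table. Only this form was searched, so a sterol regulatory element with other letters would be missed in the remaining genes. A match is a run of letters and was not tested for binding.

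Below are the windows of 3 called genes of the first steps of sterol synthesis, with CCAAT boxes (also as ATTGG on the other strand) and the sterol regulatory element in capitals. Hmgcs1 was lower in frontal libraries and Mvk and Acat2 higher.
Hmgcs1, chr13:119690101-119690400, plus strand: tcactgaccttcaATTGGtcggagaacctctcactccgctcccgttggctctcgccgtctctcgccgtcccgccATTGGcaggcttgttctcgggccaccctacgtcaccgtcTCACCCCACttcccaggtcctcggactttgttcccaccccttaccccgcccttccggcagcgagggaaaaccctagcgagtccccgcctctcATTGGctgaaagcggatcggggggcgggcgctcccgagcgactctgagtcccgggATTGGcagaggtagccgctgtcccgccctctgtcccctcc
Mvk, chr5:114444019-114444318, plus strand: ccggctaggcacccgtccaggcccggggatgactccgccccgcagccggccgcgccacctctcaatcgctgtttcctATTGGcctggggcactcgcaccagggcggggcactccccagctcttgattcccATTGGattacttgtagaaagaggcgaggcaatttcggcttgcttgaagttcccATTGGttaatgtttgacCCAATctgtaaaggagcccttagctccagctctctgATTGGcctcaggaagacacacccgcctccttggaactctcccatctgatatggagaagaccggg
Acat2, chr17:12960676-12960975, minus strand: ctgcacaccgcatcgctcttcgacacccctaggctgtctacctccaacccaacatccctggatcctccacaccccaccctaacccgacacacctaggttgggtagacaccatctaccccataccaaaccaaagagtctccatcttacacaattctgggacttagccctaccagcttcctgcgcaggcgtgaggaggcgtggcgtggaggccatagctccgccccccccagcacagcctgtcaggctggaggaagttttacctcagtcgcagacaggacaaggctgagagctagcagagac
The Hmgcs1 window holds 4 CCAAT boxes and the element TCACCCCAC, which begins at position -137 counted from the RefSeq start that defines the window and not from the annotated gene start given with the values. The Mvk window holds 5 CCAAT boxes and the Acat2 window 0. None of the searched motifs overlapped another in these windows.

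The first enzymes of the sterol pathway differed in opposite directions. Hmgcs1, the cytosolic HMG-CoA synthase (chromosome 13, 119690379 to 119708260, GRCm38), was at 407 and 484 CPM in frontal and 597 and 572 CPM in parietal libraries. Both frontal libraries lay below both parietal libraries, and frontal library 1 was the lowest. An antisense gene that overlaps 12.1% of the exon bases of Hmgcs1 was at 0.139 to 0.442 CPM. The difference was -0.39 ± 0.09 (SE), 1.31-fold lower in frontal, with an edgeR adjusted p = 0.0171. It was -0.36 (adjusted p = 0.253) without parietal library 1 and -0.43 (adjusted p = 0.142) without library 2 in the same test.

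Acat2, the cytosolic acetoacetyl-CoA thiolase that comes just before it (chromosome 17, 12942890 to 12960747), was at 111 and 125 CPM in frontal and at 95.3 and 91.6 CPM in parietal libraries. The groups did not overlap, with frontal above. It was 1.27-fold higher in frontal libraries, at 0.34 ± 0.09 (edgeR adjusted p = 0.0322), a call also lost scaled by the total count alone (adjusted p = 0.0723). Reads of Acat2 may be shared with a near copy: 39.1% of the 50-base windows of its transcripts also occur in Acat3, which was at 2.70 to 3.24 CPM and had a difference of 0.09 (edgeR adjusted p = 0.886). The edgeR adjusted p of Acat2 was 0.307 without parietal library 1 and 0.42 without library 2.

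Mevalonate kinase, encoded by Mvk (chromosome 5, 114444269 to 114460591), was at 34.5 and 27.8 CPM in frontal and at 23.7 and 20.9 CPM in parietal libraries. All 4 values were spread, but both frontal values exceeded both others. The gene was 1.4-fold higher in frontal libraries, at 0.48 ± 0.13 (edgeR adjusted p = 0.0412), and the adjusted p was 0.0628 scaled by the total count alone. Without parietal library 1 it had an edgeR adjusted p of 0.133 and without library 2 one of 0.377. Pmvk, which encodes the next kinase, overlapped between the groups, at 56.4 and 56.9 against 63.6 and 56.1 CPM (-0.08 ± 0.10).

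The next enzymes were not called. Mvd, the mevalonate diphosphate decarboxylase, was at 18.8 CPM in both frontal libraries and at 14 CPM in both parietal libraries (0.43 ± 0.13, edgeR adjusted p = 0.0557). Mvd was called higher with no filter on low counts (edgeR adjusted p = 0.0481). Its difference was 0.42 without frontal library 1 and 0.42 without frontal library 2. Idi1, the isomerase that makes the reactive isoprene unit, was at 11 and 13.5 against 9.45 and 8.59 CPM. Its frontal values lay above the others, with a difference of 0.44 ± 0.17 (edgeR adjusted p = 0.121). Idi1 had a difference of 0.58 without frontal library 1 and 0.27 without frontal library 2. Of its 50-base windows 25.3% recur in other genes, mainly a pseudogene, so its level is less certain. Fdps, the farnesyl diphosphate synthase at the branch to other isoprenoids, was the lowest of all 34 genes at 3.34 and 3.86 against 3.44 and 4.46 CPM, and its groups overlapped. Another annotated gene on the same strand, Gm43738, covers 26.7% of the exon bases of Fdps, so its level is uncertain.

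Squalene synthase and squalene epoxidase, the enzymes that commit farnesyl diphosphate to sterol, were called higher. Fdft1, which encodes squalene synthase (chromosome 14, 63145150 to 63179578), was at 159 CPM in both frontal libraries against 130 and 129 CPM. The frontal pair stood above the other pair with little spread in either. The difference was 0.30 ± 0.08, or 1.23-fold, with an edgeR adjusted p = 0.0302. Exons of the cathepsin gene Ctsb on the opposite strand overlap 18.3% of its exon bases, and Ctsb itself had a difference of -0.02 (edgeR adjusted p = 0.9). Sqle, which encodes squalene epoxidase (chromosome 15, 59315077 to 59331192), was at 95.8 and 89.2 against 68.7 and 76.3 CPM. Its groups did not overlap, and it was 1.27-fold higher in frontal libraries (0.35 ± 0.09, edgeR adjusted p = 0.0331). Scaled by the total count alone, the adjusted p was 0.0664 for Fdft1 and 0.0634 for Sqle. Leaving out parietal library 1 gave edgeR adjusted p-values of 0.418 for Fdft1 and 0.5 for Sqle, and leaving out library 2 gave 0.439 and 0.211.

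After squalene, 9 of 10 genes had a positive difference and 8 had both frontal libraries above both others, against 50.7% and 28.9% of all genes tested. Among genes averaging 10 CPM or more, these shares were 52.1% and 33.8%. Of the 10 genes after squalene 1 was called higher, Sqle. This share is near the 9.25% called higher among genes averaging 10 CPM or more. Lss, which closes the ring to lanosterol, was at 48.4 and 42.5 against 40.7 and 40.1 CPM (0.17 ± 0.10). Cyp51, the lanosterol demethylase, was at 115 and 137 against 110 and 105 CPM (0.23 ± 0.10). For these, frontal values exceeded the others by little, and the frontal libraries differed from each other about as much as the groups did. Exons of Akap9 on the opposite strand overlap 3.76% of the exon bases of Cyp51, and Akap9 was higher in frontal libraries (0.48, edgeR adjusted p = 0.00244). Msmo1, the methylsterol oxidase, was at 33.4 and 41.1 against 28.6 and 29.2 CPM (0.36 ± 0.12, edgeR adjusted p = 0.0785). Its partners in removing the methyl groups, Nsdhl and Hsd17b7, had differences of 0.19 ± 0.10 and 0.37 ± 0.14. Ebp, the sterol isomerase, and Sc5d, the desaturase that follows it, had differences of 0.20 ± 0.12 and 0.22 ± 0.10.

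Of the genes after squalene, Dhcr7 and Tm7sf2 lay closest to 0. Dhcr7, the reductase whose loss causes Smith-Lemli-Opitz syndrome, was at 46.2 and 49.5 against 47.1 and 43.7 CPM, and its groups overlapped (0.08 ± 0.10). Tm7sf2, another sterol reductase, also overlapped, at 13.5 and 15.5 against 14.8 and 16 CPM (-0.09 ± 0.14). Differences of several uncalled genes after squalene moved with the frontal library left out. Without frontal library 1 they were 0.35 for Cyp51, 0.51 for Msmo1, 0.30 for Ebp and 0.29 for Sc5d. Without frontal library 2 these genes were at 0.09, 0.20, 0.09 and 0.13. Lss and Hsd17b7 were at 0.07 and 0.32 without frontal library 1, and at 0.25 and 0.41 without frontal library 2.

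As a group, the 18 sterol synthesis genes had 4 called higher and 1 lower, shares of 22.2% and 5.56%. Over all genes tested these shares were 6.25% and 6.44%, and among genes averaging 10 CPM or more 9.25% and 10.5%. The median log2 difference was 0.22 against 0.006 over all genes. Both frontal libraries exceeded both parietal libraries for 13 of 18 genes, a share of 72.2%, against 28.9% of all genes tested and 33.8% of those averaging 10 CPM or more. For 1 gene, Hmgcs1, they lay below, against 28.4% of all genes and 31.6% of those averaging 10 CPM or more. The direction was positive in 14 of 18 genes, a share of 77.8%, against 50.7% of all genes and 52.1% of those averaging 10 CPM or more. Scaled by the total count alone, 14 were still positive, with a median of 0.17, but 0 were called higher and 1 lower. Hmgcs1 was both abundant and lower, and the summed level of the 18 genes overlapped between the groups, at 1277 and 1392 CPM in frontal and 1350 and 1318 CPM in parietal libraries, with means of 1334 CPM in both. Summed without Hmgcs1, the other 17 genes were at 869 and 908 against 753 and 746 CPM. The gene left out is the 1 called lower, so this sum is not read as a test of the set.

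**Figure D2:**
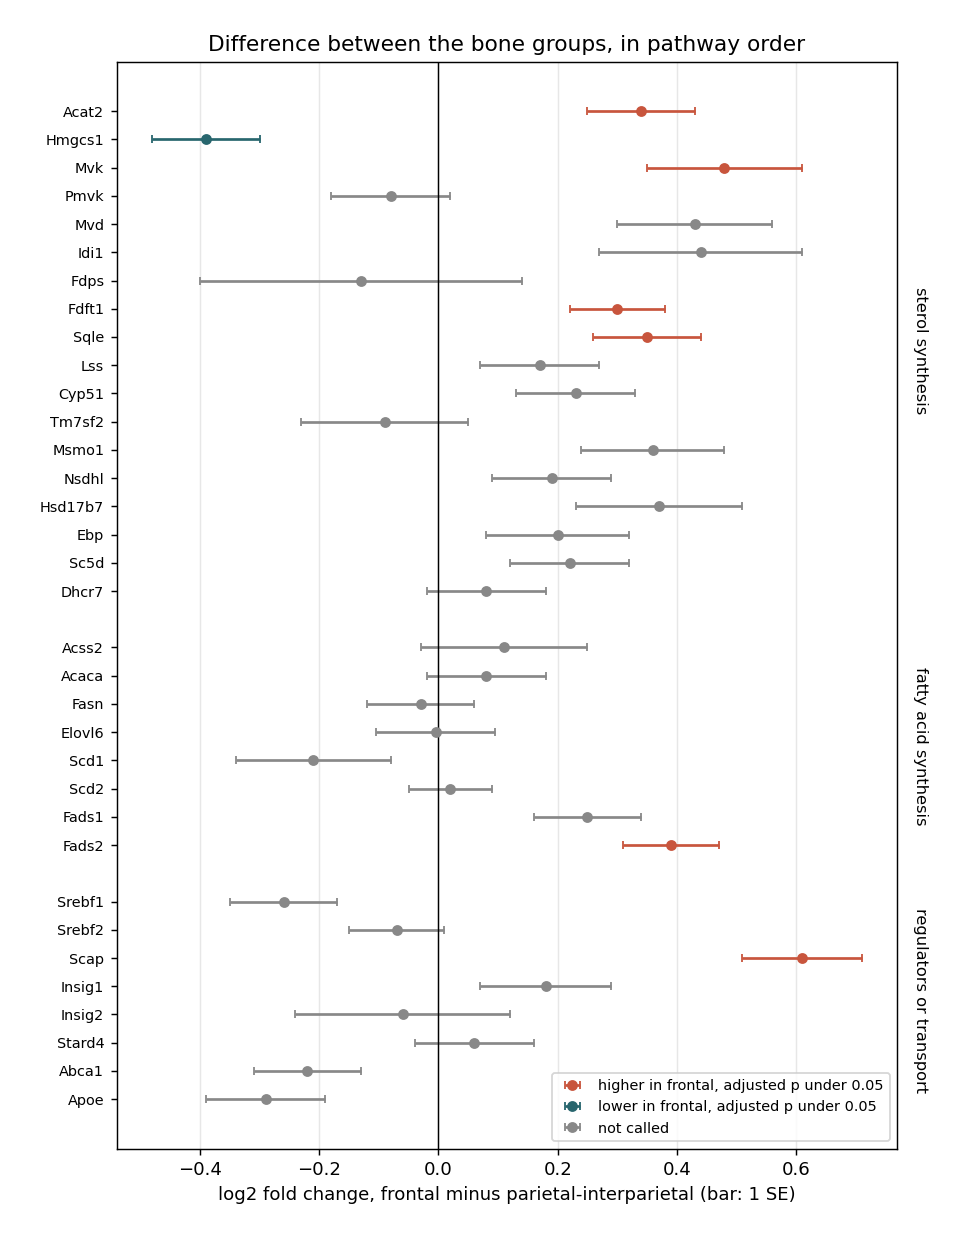
Log2 difference of each gene, frontal minus parietal, in pathway order, with bars of 1 SE from the edgeR fit on 2 libraries per group. Called genes are red (higher in frontal, 6 genes) or teal (lower, Hmgcs1), and the other 27 are grey. Scap stands farthest to the right at 0.61 and Hmgcs1 farthest to the left at -0.39.

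In fatty acid synthesis the desaturases of polyunsaturated fatty acids had the largest positive differences of the 8 genes. Fads2, which encodes the first desaturase of that route (chromosome 19, 10062765 to 10101746), was at 148 and 135 CPM in frontal and at 108 CPM in both parietal libraries. Both frontal values were higher, and the difference of 0.39 ± 0.08, or 1.31-fold, was called (edgeR adjusted p = 0.0129). It kept its call scaled by the total count alone and lost it without parietal library 1 (edgeR adjusted p = 0.254) or library 2 (0.246). Fads1, also on chromosome 19, encodes a later desaturase and was at 99.1 and 90.5 against 81.9 and 77.9 CPM. Again the groups did not overlap, at 0.25 ± 0.09, but the gene was not called (edgeR adjusted p = 0.1). Its difference was 0.18 without frontal library 1 and 0.30 without frontal library 2.

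Enzymes that build and first modify the fatty acid chain were not called. Acaca, the cytosolic acetyl-CoA carboxylase, was at 119 and 97.1 against 98.4 and 105 CPM, with overlapping groups. A pseudogene, Gm5182, holds most of the 30.4% of its 50-base windows that recur in other genes, and was itself at 8.24 to 9.31 CPM. The difference of Acaca was 0.21 without frontal library 2 and turned to -0.07 without frontal library 1. Fasn, the fatty acid synthase, was at 168 and 143 against 163 and 154 CPM. Its groups overlapped too, and its difference was -0.15 without frontal library 1 and 0.07 without frontal library 2. Elovl6, the elongase of long saturated chains, was at 60.4 and 60.5 against 57 and 64.3 CPM.

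The stearoyl-CoA desaturases differed from each other in level. Scd2, the form of embryonic and neural tissue, was at 443 and 463 CPM in frontal and 457 and 437 CPM in parietal libraries, so that the groups overlapped (0.02 ± 0.07, turning to -0.03 scaled by the total count alone). Scd1, the form that dominates in adult liver and fat, was at 20.3 and 22 against 26.1 and 22.7 CPM. All frontal values lay below the others, by a margin that was not called (-0.21 ± 0.13, edgeR adjusted p = 0.33). Per kilobase of merged exons Scd2 was at 82.4 and Scd1 at 4.65 CPM per kilobase. Acss2, which makes acetyl-CoA from acetate, was at 13.4 and 12.6 against 11.9 and 12.2 CPM (0.11 ± 0.14). Of the 8 genes 1 was called higher (12.5%) and 0 lower, against 9.25% and 10.5% of genes averaging 10 CPM or more. The median difference was 0.05. Both frontal libraries exceeded both others in 37.5% of the 8 genes. This share was 28.9% of all genes and 33.8% of those averaging 10 CPM or more.

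The escort protein gene Scap had the largest difference of the 34 genes. Scap (chromosome 9, 110333288 to 110384950) was at 38.9 and 41.7 CPM in frontal and at 26.4 and 26.3 CPM in parietal libraries. The pairs were tight and far apart. Its level was 1.53-fold higher in frontal libraries (0.61 ± 0.10, edgeR adjusted p = 0.00426), and it kept its call scaled by the total count alone. Without parietal library 1 the edgeR adjusted p was 0.0646, without library 2 it was 0.0785, and the difference stayed at 0.62 and 0.61.

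The SREBP genes themselves were not called. Srebf1, whose product acts mainly on fatty acid genes, was at 52.9 and 53.8 CPM in frontal and 65.6 and 62 CPM in parietal libraries. Both frontal values were lower, at -0.26 ± 0.09 (edgeR adjusted p = 0.094). The difference was -0.24 without frontal library 1 and -0.28 without frontal library 2. Srebf2, whose product acts mainly on sterol genes, was at 119 and 124 against 132 and 124 CPM (-0.07 ± 0.08). Of the retention proteins, Insig1 was at 28.6 and 30.6 against 26.4 and 25.9 CPM (0.18 ± 0.11). Insig2 was at 12.2 and 18 against 15.9 and 15.7 CPM, so that the frontal libraries lay on both sides of the others. Its difference was -0.38 without frontal library 2 and 0.19 without frontal library 1.

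Genes of sterol transport had negative or small differences. Apoe, the lipoprotein of macrophages and glia, was at 357 and 291 CPM in frontal and 396 and 397 CPM in parietal libraries. Frontal values were lower, and frontal library 2 was the lowest (-0.29 ± 0.10, edgeR adjusted p = 0.0735). DESeq2 called it lower (adjusted p = 0.0485). So did fits with no filter on low counts, with total-count scaling and with the replicate number as a block. Its difference was -0.45 without frontal library 1 and -0.16 without frontal library 2. The summed macrophage genes, at 394 and 395 against 490 and 490 CPM, were lower in the same libraries, and their part in the Apoe values was not tested. Abca1, the exporter that loads sterol onto apolipoproteins, was at 51.7 and 50.3 against 62 and 56.6 CPM. It too lay below in both frontal libraries without being called (-0.22 ± 0.09, edgeR adjusted p = 0.169). The difference was -0.24 without frontal library 1 and -0.21 without frontal library 2. Stard4, a carrier of sterol between membranes, was at 31.5 and 32.9 against 30.9 and 31 CPM (0.06 ± 0.10).

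Compared per kilobase of merged exons, the 34 genes spanned a wide range. Apoe was highest at 169 CPM per kilobase (136 to 186 over the 4 libraries), followed by Hmgcs1 at 112 (88.7 to 130) and Scd2 at 82.4 (80 to 84.8). These 3 did not overlap with each other over the libraries. Acat2 at 41.6 and Fads2 at 37.8 came next and overlapped. At the other end were Fdps at 0.897 and Acss2 at 1.23 CPM per kilobase. The place of Fdps is uncertain, because Gm43738 on the same strand covers 26.7% of its exon bases. Hmgcs1 lay above 98.1% and Apoe above 98.8% of the genes tested, and Srebf2, at 17.4 CPM per kilobase, above 87.6%. Merged exons include rarely used isoforms, which lowers the value of genes such as Lss, with a merged length of 10787 bases.

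The gap between the frontal libraries was often as large as the difference between the groups. It was the larger for 12 of the 34 genes, a share of 35.3%, against 42.1% of the 10395 genes averaging 10 CPM or more. Frontal library 2 was above frontal library 1 by 0.25 log2 units in Hmgcs1 and Cyp51, 0.30 in Idi1 and Msmo1 and 0.55 in Insig2. It was below by -0.29 in Acaca, -0.30 in Apoe and -0.31 in Mvk. Frontal library 2 was the higher in 11 of 18 sterol synthesis genes, 3 of 8 fatty acid synthesis genes and 49.2% of genes averaging 10 CPM or more.

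**Figure D3:**
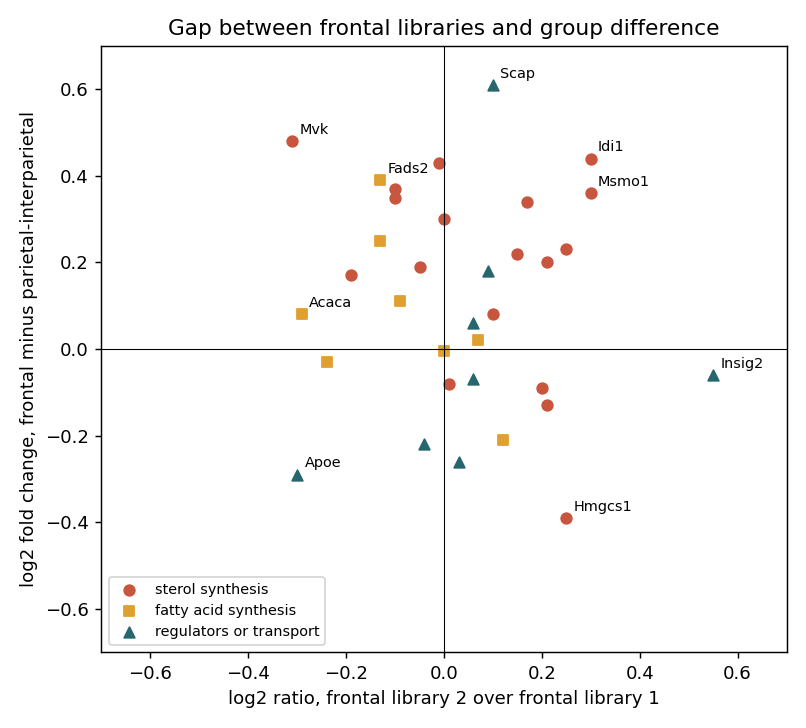
Log2 ratio of frontal library 2 over frontal library 1 (x axis) against the log2 difference between the groups (y axis) for each of the 34 genes, by role. The y axis uses the libraries of the x axis, so no correlation is read from it. Scap and Fads2 show a group difference larger than their frontal gap, and Insig2 and Acaca show the reverse.

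Other genes of lipid metabolism were called about as often as all genes tested. Over the 6 lists 12 of 98 tested genes were called, a share of 12.2% against 12.7% of all genes tested. Of these, 5 were higher (5.1% against 6.25%) and 7 lower (7.14% against 6.44%). Among genes averaging 10 CPM or more, 19.7% were called, 9.25% higher and 10.5% lower. How many of the 98 reach that level was not counted. Of 15 tested genes of SREBP processing and the liver X receptor pathway, 2 were higher and 0 lower (13.3% and 0%). Lrp8, a receptor for apolipoprotein E and reelin that neurons express, was at 64.6 and 68.8 against 30.3 and 30.8 CPM, 2.18-fold higher (1.13 ± 0.10, edgeR adjusted p = 8.25e-05). Mbtps2, the protease that cuts SREBPs in the membrane, was 1.48-fold higher (0.57 ± 0.16, edgeR adjusted p = 0.0487). Of 12 genes of the isoprenoid branches, 0 were higher and 3 lower (0% and 25%). These were Fnta, the shared subunit of protein prenyltransferases (-0.49 ± 0.10), Nus1, a subunit of the dolichol-making prenyltransferase (-0.41 ± 0.11), and Pdss2, which makes the tail of coenzyme Q (-0.56 ± 0.16).

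Among 23 genes of fatty acid supply, activation and elongation, 2 were higher and 1 lower. These shares were 8.7% and 4.35%, against 6.25% and 6.44% of all genes tested. Acly, which cleaves citrate to cytosolic acetyl-CoA and so feeds both pathways, was at 453 and 500 against 628 and 610 CPM (-0.38 ± 0.08, edgeR adjusted p = 0.00968). Elovl2, the elongase of polyunsaturated chains that works with Fads1 and Fads2, was at 15.2 and 18.9 against 10.3 and 11.2 CPM (0.67 ± 0.16, edgeR adjusted p = 0.0195). Tecr, the reductase of the elongation cycle, was 1.25-fold higher (0.33 ± 0.08). Acly and Hmgcs1 were both lower, and Elovl2 and Fads2 both higher, in frontal libraries. These genes were set side by side after their values were seen, and no link between them was tested. Acat2 was higher, and Acaca and Fasn were not called.

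Of 16 genes of sterol storage, oxysterols and intracellular transport, 1 was higher and 2 lower (6.25% and 12.5%). Over all genes tested the shares were 6.25% and 6.44%. Stard5 and Gramd1b, carriers of sterol between membranes, were 1.83-fold and 1.39-fold lower in frontal libraries. Cyp46a1, the neuronal enzyme that hydroxylates cholesterol for export from the brain, was 1.5-fold higher, at 11.7 and 10.8 against 7.45 and 7.55 CPM. Fatty acid oxidation had 0 of 16 genes higher and 1 lower (0% and 6.25%). The lower gene was Hadhb, a subunit of the mitochondrial trifunctional protein (-0.70 ± 0.15). Of 16 genes of glycerolipid synthesis 0 were called by edgeR or by DESeq2, with 4 at an unadjusted p under 0.05 in edgeR and 2 in DESeq2. Gpam, the mitochondrial glycerol phosphate acyltransferase, was nearest to a call (-0.31 ± 0.10, edgeR adjusted p = 0.0615). The 12 called genes of these pathways kept their direction in every alternative. Of the 12, Lrp8 and Stard5 stayed called without parietal library 1, and Lrp8, Stard5 and Hadhb without library 2 or with that pair added up. Mbtps2 and Cyp46a1 were not called scaled by the total count alone, nor was either of them or Pdss2 by DESeq2, and Mbtps2 was not called without ribosomal and mitochondrial genes.

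**Figure D4:**
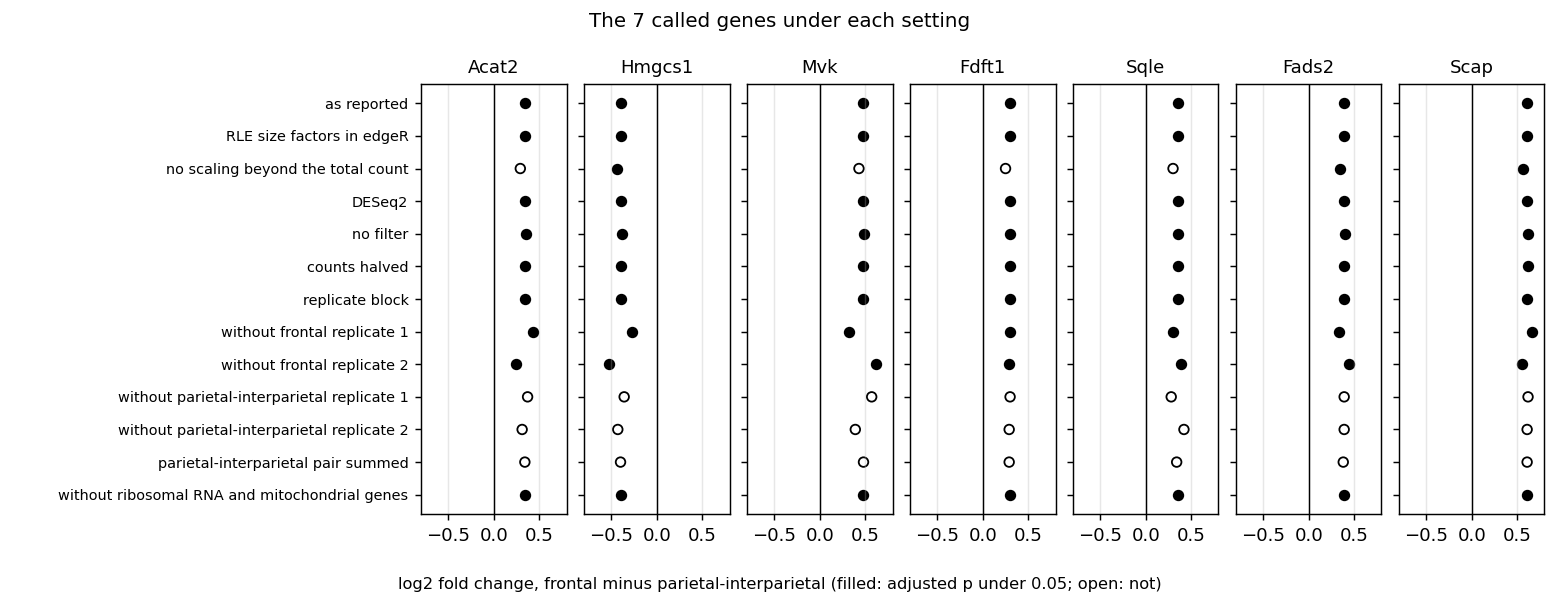
Log2 difference of the 7 called genes (x axis of each panel) as reported and under 12 alternative settings (rows), with filled points where the adjusted p was under 0.05 and open points where it was not. Each gene kept its sign in every setting shown, and all 7 lost their call when a parietal library was left out or the parietal pair was added up.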

How the data were processed

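The files held deposited counts for 4 poly(A) libraries, whole numbers per gene without normalization. The submitters' processing notes name featureCounts 2.0.1, HISAT2 2.1.0 and Trim Galore 0.6.7, with build GRCm38. What the authors' counting used as settings, annotation release and strand is not given in the sources used here, so reads of overlapping genes cannot be told apart. Of counts from 1 to 20, between 68.3% and 74.4% per library were even, and halved counts were tried as an alternative. Symbols and positions came from GENCODE on GRCm38 (55227 of 55487 IDs matched). Groups came from the labelled bone. After filterByExpr (minimum count 10) and scaling with TMM, the trimmed mean of M-values, edgeR 4.0.16 (R 4.3.3) compared the groups in a two-sided test with 2 residual degrees of freedom and Benjamini-Hochberg adjustment. Alternatives were DESeq2 1.42.0 and its size factors in edgeR, total-count scaling, no filter, halved counts, the replicate number as a block, the parietal pair summed, ribosomal and mitochondrial genes removed, and each library left out. A count of 3 was worth 0.0852 to 0.123 CPM. Members and lists were chosen with earlier results of these data known. All 34 genes are named, with bone markers and up to 3 genes of smallest p from each other list. Acat3, Ctsb, Gm43738, Gm5182 and Akap9 were named after their values were seen, because they share sequence with a gene described. Scripts were tested on simulated data. Figures used matplotlib 3.10.9.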

Additional observations from a re-analysis of the deposited data

How the results depend on the processing

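The number of genes called was 2657 as reported. It ranged from 865 to 7279 with 1 library left out, and was 791 with the parietal pair summed. Of the 34 lipid genes, 6 were called higher and 1 lower as reported. With 1 library left out 0 to 13 were called higher and 0 to 5 lower, and with the pair summed 0 and 0. Scaled by the total count alone, 2 were called higher and 2 lower. DESeq2, no filter and the replicate block each called 2 lower, which adds Apoe to Hmgcs1. In a fit without 1 library the lone library is assumed to vary like the pair left whole. Frontal and parietal libraries share replicate numbers, but nothing in the labels pairs them, and deviations of same-numbered libraries had a correlation of 0.0192. With the replicate block 7 of the 34 lipid genes were called higher, and 3306 genes were called over the whole table. The cause of these changes was not tested.

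Direction turned in 8 genes, none of them called as reported. With 1 library left out the difference ranged from -0.17 to 0.01 for Pmvk, -0.31 to 0.06 for Fdps, -0.20 to 0.01 for Tm7sf2, -0.07 to 0.21 for Acaca, -0.15 to 0.07 for Fasn, -0.09 to 0.08 for Elovl6, -0.02 to 0.05 for Scd2 and -0.38 to 0.19 for Insig2. Scaled by the total count alone Scd2 was at -0.03, and with no filter Elovl6 was at 0.0017.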
